A study of Mus musculus with 40 samples.

Results

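The genes described here are 8 genes of dopaminergic neuron identity, Th, Ddc, Slc18a2, Slc6a3, Drd2, Pitx3, Nr4a2 and Aldh1a1, out of 40213 gene symbols in the count files. They were chosen by name for their roles in dopamine synthesis, dopamine transport, autoreception and cell identity. mRNA was sequenced in 40 libraries, 20 of midbrain and 20 of spinal cord, from male C57BL/6N mice 8 weeks old. The study examined whether SU-Eohyeol pharmacopuncture (SUEHP), a herbal extract injected into an acupoint, changes pain sensitivity after MPTP, and whether the CB1 receptor and PPARγ take part. The study also stained for TH protein. It reported a fall in substantia nigra and striatum after MPTP and a recovery with SUEHP at the acupoint GB34. Either antagonist blocked the recovery, only in part for the CB1 antagonist in the striatum. The values below are mRNA of midbrain and spinal cord, not protein in these regions.

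There were 5 groups of 4 libraries in each tissue. Con mice received saline in place of MPTP and saline at the acupoint GB34. All other mice received MPTP by the intraperitoneal route, as 4 injections of 20 mg/kg given 2 h apart. The MPTP-Veh group then received saline at GB34 and the MPTP-SU group received 4 injections of SUEHP at GB34, which began 1 week after MPTP. The MPTP-SU+S group received SUEHP with the CB1 antagonist SR141714A (3 mg/kg, spelled as in the labels, where the study's methods write SR141716A), and the MPTP-SU+T group received SUEHP with the PPARγ inhibitor T0070907 (5 mg/kg). No group received SUEHP or an antagonist without MPTP. The labels do not state that libraries with the same number came from 1 animal or that replicates came from separate animals, so the p-values measure the spread between these libraries.

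Midbrain dopaminergic neurons convert tyrosine to L-DOPA with tyrosine hydroxylase (Th) and L-DOPA to dopamine with aromatic L-amino acid decarboxylase (Ddc). The vesicular monoamine transporter (Slc18a2) loads dopamine into vesicles, the dopamine transporter (Slc6a3) takes it back up from the extracellular space, and the D2 receptor (Drd2) serves as an autoreceptor on the same cells. The transcription factors Nr4a2 (Nurr1) and Pitx3 are needed for the formation and survival of these neurons, and Aldh1a1, an aldehyde dehydrogenase, marks a ventral set of them. MPTP is a protoxin whose product MPP+ enters the cells through the dopamine transporter. In bulk tissue, fewer cells of a type and less RNA per cell cannot be told apart.

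The libraries held 11958200 to 16639823 counts in the midbrain and 14642808 to 16615378 in the spinal cord. Replicate 4 of midbrain MPTP-Veh stood apart, with 1.35% of its counts in the 13 mitochondrially encoded protein genes against 9.92% to 17.5% in the other midbrain libraries, and the midbrain comparisons that use MPTP-Veh were also made without it. Levels are CPM, counts scaled to a common library size with TMM factors. A gene was called changed at an adjusted p below 0.05 in edgeR's quasi-likelihood test and a fold change above 1.5.

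In Con, all 8 genes passed the filter on low counts in the midbrain, and 7 of them were higher there than in the spinal cord (7.39% of all genes tested were called in that direction). Slc6a3 was 44.4 to 104.7 CPM in the 4 Con midbrain libraries and 0.0601 to 0.302 CPM, that is 1 to 4 counts, in the 4 Con spinal cord libraries (log2 difference 9.19 ± 0.71 (SE), adjusted p = 1.63e-12 in edgeR's quasi-likelihood test). Slc18a2 was nearly as restricted, with 0 to 3 counts in each Con spinal cord library and a log2 difference of 8.56 ± 0.43 (adjusted p = 2.06e-17). Both genes thus separated the tissues by more than any spread between replicates.

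Th differed less between the tissues, by 3.74 ± 0.40 on the log2 scale (adjusted p = 2.77e-09), with 3.25 to 3.85 CPM in the Con spinal cord. Ddc, which serotonergic neurons also use, differed by 2.28 ± 0.24 (adjusted p = 2.01e-09). The log2 difference was 0.88 ± 0.12 for Drd2 and 1.69 ± 0.29 for Nr4a2, with spinal cord Con means of 15.6 ± 1.79 CPM (SD, n = 4) and 7.48 ± 1.87 CPM. These genes were therefore clearly present in the spinal cord as well. Pitx3 was near the limit of detection in both tissues, with 5 to 15 counts in the Con midbrain libraries and 0 to 1 in the Con spinal cord libraries. Aldh1a1, which other cells also express, was 223.6 ± 16.6 CPM in the midbrain and 180.4 ± 10.8 CPM in the spinal cord, a 1.25-fold difference (adjusted p = 0.00267) that stayed under the 1.5-fold threshold.

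To compare levels between genes, the Con midbrain means were divided by the length of the longest coding transcript. Aldh1a1 stood first with 94.8 ± 7.02 CPM per kilobase (SD, n = 4). Th (24.4 ± 7.65), Slc6a3 (22.9 ± 8.01) and Ddc (22.7 ± 4.57) followed and lay within 1 SD of each other. Slc18a2 (11.9 ± 3.33) and Drd2 (11.1 ± 1.04) formed the next pair, also within 1 SD. Nr4a2 was at 6.73 ± 1.95 and Pitx3 at 0.414 ± 0.192 CPM per kilobase. The order of genes within the Th, Slc6a3 and Ddc group and within the Slc18a2 and Drd2 pair is not resolved by these replicates.

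The DNA just before the start sites of Th, Ddc, Slc18a2 and Slc6a3, the genes of dopamine synthesis and transport, is shown. RefSeq windows of 300 bases on GRCm38.p6, from 250 bases before to 50 after the start, were found for all 8 genes (10 windows, as Ddc and Aldh1a1 have 2 each). They were searched on both strands for the cAMP response element TGACGTCA, the NGFI-B response element AAAGGTCA that Nr4a family factors can bind, and the bicoid-type core TAATCC that Pitx factors can bind. The lines give the 100 bases before and the first 10 after the start, 5′ to 3′ on the gene's strand, with matches in capitals.
Th, chr7:142899986-142900095, minus strand: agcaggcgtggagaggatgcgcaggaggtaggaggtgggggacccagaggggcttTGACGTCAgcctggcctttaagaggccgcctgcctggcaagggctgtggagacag
Slc18a2, chr19:59260778-59260887, plus strand: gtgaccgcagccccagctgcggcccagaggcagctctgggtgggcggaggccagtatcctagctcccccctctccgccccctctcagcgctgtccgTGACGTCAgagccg
Ddc (first window), chr11:11898135-11898244, minus strand: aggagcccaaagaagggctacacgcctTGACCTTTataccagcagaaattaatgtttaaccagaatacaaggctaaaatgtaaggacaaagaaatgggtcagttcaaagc
Slc6a3, chr13:73536647-73536756, plus strand: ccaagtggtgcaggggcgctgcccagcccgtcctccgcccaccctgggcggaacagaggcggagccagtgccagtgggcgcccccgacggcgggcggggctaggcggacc

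The cAMP response element began 45 bases before the Th start and 4 bases before the Slc18a2 start, and no other window of the 8 genes held it. The Ddc match is the NGFI-B response element read on the opposite strand. The second Ddc window, not printed, held no match, nor did any window of Slc6a3, Drd2, Pitx3, Nr4a2 or Aldh1a1. Pitx3 and Aldh1a1, which also varied with Th as described further on, are not printed. Among 32851 RefSeq windows of the same length, 1.79% held TGACGTCA, 1.51% held AAAGGTCA and 7.06% held TAATCC, which none of the 10 windows held. A match is a string of letters in this window, and binding was not measured.

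Th varied widely among midbrain libraries and not along the treatment groups. In replicate order, Th was 26.4, 58.8, 48.3 and 57.1 CPM in Con and 17.04, 70.3, 60.2 and 109.7 CPM in MPTP-Veh. It was 20.4, 27.2, 54.6 and 72.6 CPM in MPTP-SU, 66.0, 52.0, 30.9 and 72.4 CPM in MPTP-SU+S, and 44.2, 72.8, 69.0 and 67.9 CPM in MPTP-SU+T. The MPTP-Veh group held both the lowest and the highest Th value of all 20 libraries, a 6.44-fold range, and its libraries spanned those of Con on both sides. The mean was 47.6 ± 14.9 CPM (SD, n = 4) in Con and 64.3 ± 38.1 CPM in MPTP-Veh.

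**Figure D1:**
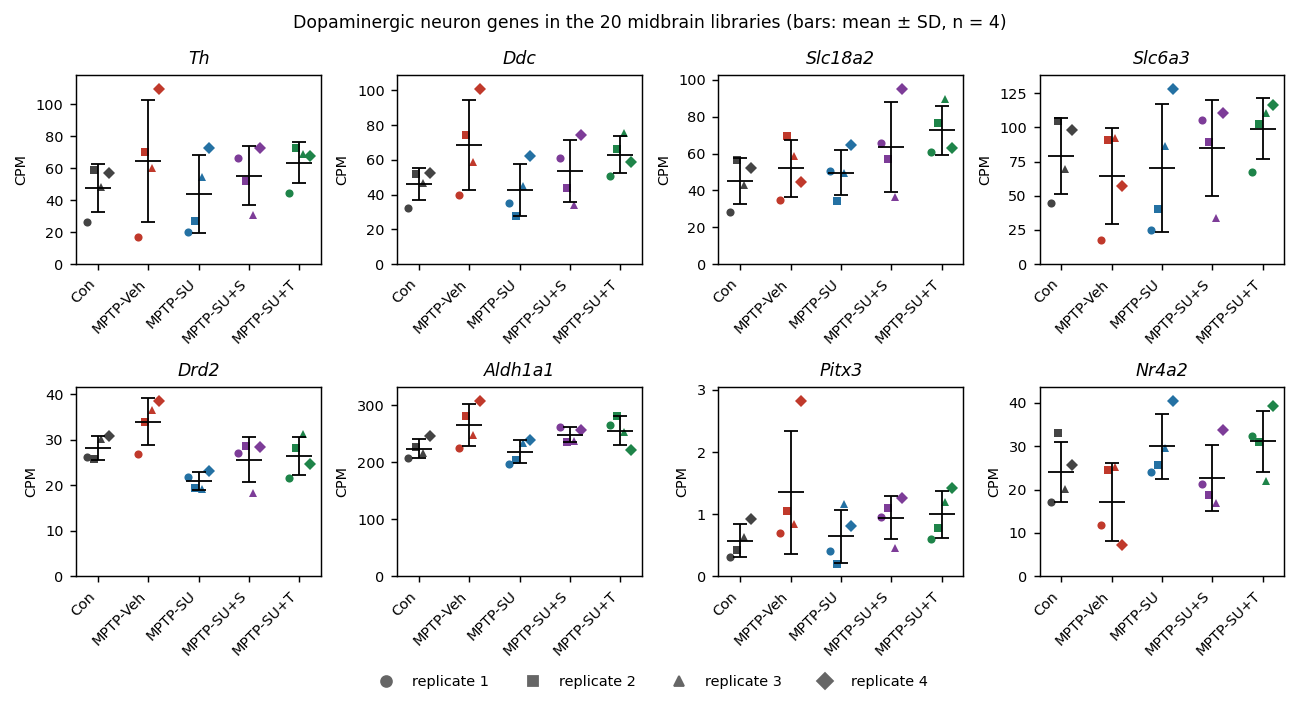
Levels (CPM, linear axis from 0) of the 8 genes in the 20 midbrain libraries, by group, with 1 point per library, its shape giving the replicate number, and the mean ± SD (n = 4). Th ranged from 17.04 to 109.7 CPM within MPTP-Veh alone, and Drd2 is the gene whose MPTP-SU values (19.1 to 23.2 CPM) lay wholly below those of Con and MPTP-Veh.

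Slc6a3 showed the same spread. Its values were 44.4, 104.7, 69.5 and 97.8 CPM in Con, 17.7, 91.0, 92.2 and 57.0 CPM in MPTP-Veh, and 24.8, 40.6, 86.3 and 128.3 CPM in MPTP-SU. In MPTP-SU+S it was 105.4, 89.0, 33.8 and 110.3 CPM, and in MPTP-SU+T it was 67.2, 102.7, 110.4 and 116.3 CPM. All groups overlapped, and the lowest value of each of MPTP-Veh, MPTP-SU and MPTP-SU+S was below the lowest Con value. The SD of log2 CPM within groups was 0.740 for Th and 0.833 for Slc6a3, against a median of 0.304 over all genes tested. That put them at percentiles 94.6 and 96.6 of all genes, and at 99.5 and 99.8 of the genes with a mean log2 level within 0.5 of their own. Differences between groups made up 11.7% of the variance of Th and 15.2% of that of Slc6a3.

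Ddc and Slc18a2 spread less than Th and Slc6a3. Ddc was 32.5 to 52.4 CPM in Con, 39.8 to 101.0 CPM in MPTP-Veh, 27.7 to 62.4 CPM with MPTP-SU, 34.2 to 74.3 CPM in MPTP-SU+S and 51.0 to 75.7 CPM in MPTP-SU+T. Slc18a2 was 28.1 to 56.5 CPM in Con, 34.6 to 69.7 CPM in MPTP-Veh, 34.2 to 64.7 CPM with MPTP-SU, 36.3 to 95.3 CPM in MPTP-SU+S and 60.8 to 89.5 CPM in MPTP-SU+T. For Slc18a2, every MPTP-SU+T library was above every Con library, and no other pair of groups against Con was separate for these genes. Aldh1a1 was the steadiest of the 8, with 197.4 to 307.3 CPM over all 20 libraries and a within-group SD of 0.139 on the log2 scale (percentile 10.6 of all genes).

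Drd2 was also steady, with a within-group SD of 0.217 on the log2 scale (percentile 29.4), and differences between groups made up 58.4% of its variance. The transcription factors were more variable. Nr4a2 was 17.1 to 33.0 CPM in Con, 7.25 to 25.2 CPM in MPTP-Veh, 23.9 to 40.4 CPM with MPTP-SU, 16.99 to 33.7 CPM in MPTP-SU+S and 22.02 to 39.2 CPM in MPTP-SU+T. Pitx3 rested on 3 to 30 counts per midbrain library, and its values are correspondingly imprecise. Its means were 0.571 ± 0.265 CPM in Con and 1.35 ± 0.990 CPM in MPTP-Veh.

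To ask whether MPTP lowered these genes, MPTP-Veh was compared with Con in the midbrain. None of the 8 genes was called (0.018% of all genes tested were). Th was 0.43 higher on the log2 scale (95% interval −0.49 to 1.35, adjusted p = 0.539 in edgeR's quasi-likelihood test) and Slc6a3 0.29 lower (95% interval −1.32 to 0.74, adjusted p = 0.718). Of the 8 genes 6 had a higher and 2 a lower estimate, with a median log2 fold change of 0.25 against 0.0001 over all genes. At an unadjusted p below 0.05, Pitx3 (log2 fold change 1.20, adjusted p = 0.183 in edgeR's quasi-likelihood test) and Aldh1a1 (0.25, adjusted p = 0.182) passed, as did 23.7% of all genes. Without replicate 4 of MPTP-Veh the log2 fold changes were 0.05 for Th, 0.59 for Pitx3, 0.33 for Ddc and −0.22 for Nr4a2, and none of the 8 was called. In fold terms the intervals with all libraries span 0.711 to 2.56 times the Con level for Th and 0.400 to 1.67 times for Slc6a3, so these libraries set only wide bounds on a change.

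The 4 MPTP groups together were then compared with Con, which uses 16 libraries that received MPTP. None of the 8 genes was called (1.27% of all genes tested). The log2 fold change of Th was 0.23 (95% interval −0.51 to 0.97), which corresponds to 0.704 to 1.96 times the Con level. That of Slc6a3 was −0.01 (95% interval −0.82 to 0.80), or 0.565 to 1.74 times the Con level. Drd2 was bounded more tightly, at 0.785 to 1.11 times, and Aldh1a1 at 0.971 to 1.24 times. For the pooled groups, a loss of Th mRNA to less than 0.704 times the Con level lies outside the 95% interval, and smaller losses lie within it. Every pooled group except MPTP-Veh was also given SUEHP, so this interval does not bound the effect of MPTP alone. The interval of MPTP-Veh against Con was 0.711 to 2.56 times for Th. Replicate 4 of MPTP-Veh, whose Th was the highest of all midbrain libraries at 109.7 CPM, is part of each interval. A bound without that library is not given here.

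**Figure D2:**
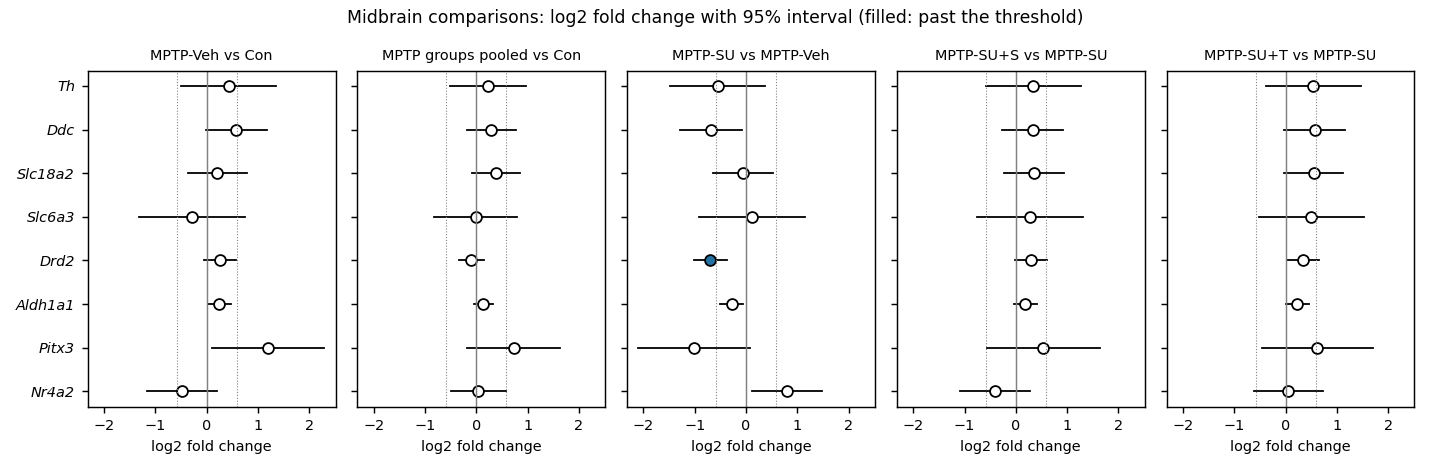
Log2 fold changes of the 8 genes in 5 midbrain comparisons, with 95% intervals from edgeR's quasi-likelihood fit of all 20 midbrain libraries. The dotted lines mark a 1.5-fold change, and filled points passed the threshold, which Drd2 did in MPTP-SU against MPTP-Veh (log2 fold change −0.70).

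In MPTP-SU compared with MPTP-Veh in the midbrain, 9.1% of all genes tested were called lower and 4.35% higher. Of the 8 genes, Drd2 alone fell, a share close to that of all genes. Drd2 was 26.8, 33.8, 36.6 and 38.6 CPM in MPTP-Veh and 21.9, 19.5, 19.1 and 23.2 CPM in MPTP-SU. The groups did not overlap, as was so for 21.9% of all genes. The means were 34.0 ± 5.14 and 20.9 ± 1.95 CPM (SD, n = 4), and the log2 fold change was −0.70 ± 0.15 (SE, adjusted p = 0.00974 in edgeR's quasi-likelihood test). An exact two-sided permutation test of log2 CPM gave p = 0.0286, the smallest that 4 against 4 libraries allow. Without replicate 4 of MPTP-Veh the log2 fold change was −0.63 (adjusted p = 0.00863), where 2.09% of all genes were called lower. In a fit of only the 8 libraries compared it was −0.71 with an adjusted p of 0.223, and no gene at all was called in that fit.

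The remaining 7 genes did not pass in this comparison, with estimates in both directions. The log2 fold change was −0.69 for Ddc (adjusted p = 0.0850), −0.56 for Th (adjusted p = 0.351), −0.28 for Aldh1a1 (adjusted p = 0.0657) and −1.01 for Pitx3 (adjusted p = 0.152). It was 0.79 for Nr4a2 (adjusted p = 0.0841), 0.12 for Slc6a3 (adjusted p = 0.880) and −0.06 for Slc18a2 (adjusted p = 0.880). Ddc passed when replicate 1 of MPTP-Veh (−0.87, adjusted p = 0.0337) or replicate 4 of MPTP-SU (−0.92, adjusted p = 0.0456) was left out. Nr4a2 passed without replicate 2 (1.01, adjusted p = 0.0430) or replicate 3 (1.04, adjusted p = 0.0351) of MPTP-Veh. Without replicate 4 of MPTP-Veh the estimates shrank to −0.44 for Ddc (adjusted p = 0.299), 0.54 for Nr4a2 (adjusted p = 0.222), −0.18 for Th and −0.41 for Pitx3. The calls on Ddc and Nr4a2 thus turned on single libraries, and that on Drd2 did not, with adjusted p of 0.00703 to 0.0371 in edgeR's quasi-likelihood test when each of the 8 libraries was left out in turn.

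Against Con, none of the 8 genes was called in MPTP-SU (0.764% of all genes tested), MPTP-SU+S (0.704%) or MPTP-SU+T (0.156%). Drd2 in MPTP-SU lay wholly below Con (25.8 to 31.0 CPM), with a log2 fold change of −0.44 (95% interval −0.75 to −0.12, adjusted p = 0.153), as 19.6% of all genes did not overlap in that comparison. Slc18a2 in MPTP-SU+T lay wholly above Con, with a log2 fold change of 0.69 (95% interval 0.11 to 1.27, adjusted p = 0.385), where 13.3% of all genes did not overlap. Each of these gave p = 0.0286 in the exact permutation test. Neither passed once adjusted over all genes. The comparisons against Con share the 4 Con libraries.

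Adding either antagonist to SUEHP was compared with SUEHP alone, to see whether blocking CB1 or PPARγ moved these genes. None of the 8 genes was called in MPTP-SU+S or in MPTP-SU+T against MPTP-SU, where 0% of all genes tested were. At an unadjusted p below 0.05 there were 274 of 16629 genes (1.65%) in the first and 283 (1.7%) in the second. Drd2 was 27.2, 28.6, 18.4 and 28.5 CPM in MPTP-SU+S and 21.7, 28.3, 31.4 and 24.6 CPM in MPTP-SU+T, values that overlap those of MPTP-SU in both groups. The log2 difference from MPTP-SU was 0.30 (95% interval −0.02 to 0.61) with SR141714A and 0.34 (95% interval 0.02 to 0.66, adjusted p = 1 in edgeR's quasi-likelihood test) with T0070907. The Th intervals reached from −0.58 to 1.27 with SR141714A and from −0.39 to 1.46 with T0070907. No difference was thus shown for either antagonist, and Th levels of up to 2.76 times those of MPTP-SU lie within the intervals.

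In the spinal cord 5 of the 8 genes passed the filter on low counts, Th, Ddc, Drd2, Nr4a2 and Aldh1a1. Slc6a3 had 0 to 4 counts per library, Slc18a2 0 to 7 and Pitx3 0 to 2, and these were not tested. None of the 5 was called in any of the 7 pairs of groups or with MPTP groups together (0% to 0.03% of all genes tested, with 0.00599% for MPTP groups together and for MPTP-SU+T against Con, and 0.024% for MPTP-SU+T against MPTP-SU). The largest departure was that of Th, which was 3.85, 3.54, 3.25 and 3.79 CPM in Con and 2.49, 2.77, 3.10 and 2.29 CPM in MPTP-SU+S. These 2 groups did not overlap (log2 fold change −0.44, adjusted p = 0.170 in edgeR's quasi-likelihood test), as was so for 5.75% of all genes. With the 4 MPTP groups together, Th had a log2 fold change of −0.28 (95% interval −0.55 to −0.01, adjusted p = 0.334). Spinal cord Th rested on 36 to 63 counts per library.

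Drd2 in the spinal cord was 15.8 to 17.5 CPM in MPTP-Veh and 12.9 to 15.7 CPM in MPTP-SU, without overlap (3.27% of all genes), and the log2 fold change was −0.17 (adjusted p = 0.999 in edgeR's quasi-likelihood test). It was 16.0 to 18.6 CPM in MPTP-SU+T, again without overlap with MPTP-SU (8.04% of all genes, log2 fold change 0.21, adjusted p = 0.335). The Drd2 difference between MPTP-SU and MPTP-Veh was larger in the midbrain than in the spinal cord, by −0.52 on the log2 scale (95% interval −0.88 to −0.16, adjusted p = 0.0408 for the interaction). That of Aldh1a1 also differed between tissues, by −0.34 (95% interval −0.57 to −0.10, adjusted p = 0.0454). Both differences of differences were under 1.5-fold, so neither was called (12.1% of all genes tested were), and this test was added after the data were seen. For MPTP groups together against Con, no interaction of the 8 genes passed (0.941% of all genes were called), and that of Th was 0.50 (95% interval −0.38 to 1.39).

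Th varied together with Ddc, Slc6a3, Pitx3, Aldh1a1 and Slc18a2 from library to library. Over the 20 midbrain libraries, Th and Ddc correlated with Pearson's r = 0.876 (permutation p = 1e-05, the smallest that 100000 permutations can give, adjusted p = 0.00014 over 28 pairs of the 8 genes) and Spearman's rho = 0.929 (permutation p = 1e-05, adjusted p = 0.00028). Leaving out the 2 libraries farthest from the median of Th, r was 0.953. Th and Slc6a3 gave r = 0.864 (permutation p = 3e-05, adjusted p = 0.00021) and rho = 0.750 (permutation p = 0.00015, adjusted p = 0.00084), and r = 0.723 without the 2 farthest libraries. Removing the group means left r = 0.907 for Ddc and 0.904 for Slc6a3, so the relation held within groups.

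Th and Slc18a2 gave r = 0.685 (permutation p = 0.00099, adjusted p = 0.00252) and rho = 0.731 (permutation p = 0.00042, adjusted p = 0.0015), with r = 0.716 without the 2 farthest libraries and 0.687 within groups. Pitx3, at its low counts, gave r = 0.740 with Th (permutation p = 0.00015, adjusted p = 0.00084) and rho = 0.692 (permutation p = 0.00101, adjusted p = 0.00288), with r = 0.855 without the 2 farthest and 0.752 within groups. Aldh1a1, whose range is narrow, gave r = 0.730 (permutation p = 0.00025, adjusted p = 0.001) and rho = 0.732 (permutation p = 0.00043, adjusted p = 0.0015), with r = 0.723 without the 2 farthest and 0.761 within groups. Both values of r were above that of Slc18a2, a difference that was not tested. Th and Drd2 were related more loosely, with r = 0.526 (permutation p = 0.0171, adjusted p = 0.0276) and rho = 0.504 (permutation p = 0.025, adjusted p = 0.0368), r = 0.616 without the 2 farthest and 0.642 within groups. Th and Nr4a2 showed no clear relation over the 20 libraries, with r = 0.189 (permutation p = 0.424, adjusted p = 0.44) and rho = 0.368 (permutation p = 0.111, adjusted p = 0.141), and r = −0.02 without the 2 farthest. Those 2 libraries do not include replicate 4 of MPTP-Veh. Without that replicate r was 0.648, so the low r depended on that library. All points share the dissection and the library size of their sample.

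**Figure D3:**
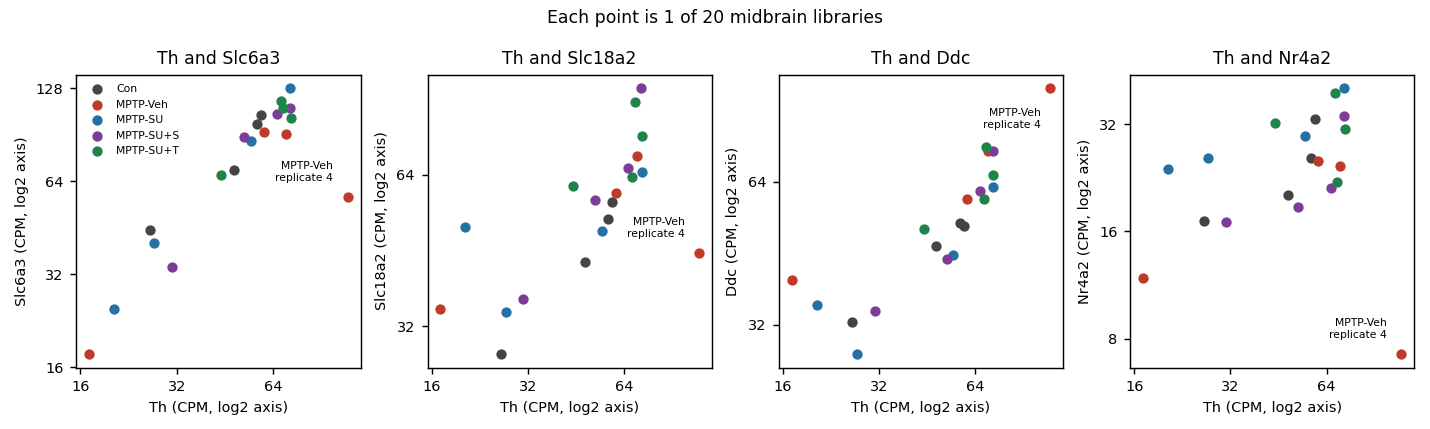
Levels of Slc6a3, Slc18a2, Ddc and Nr4a2 against Th (CPM, both axes log2), with 1 point per midbrain library coloured by group. The libraries of all 5 groups lie along 1 band for Th and Slc6a3 (r = 0.864), and MPTP-Veh replicate 4 lies off it, with Th at 109.7 CPM and Slc6a3 at 57.0 CPM.

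Replicate 4 of midbrain MPTP-Veh departed from this shared pattern. Its Th was 1.92 times, its Ddc 1.96 times and its Pitx3 3.50 times the median of the other 19 midbrain libraries, and Drd2 (1.44 times) and Aldh1a1 (1.29 times) were also above it. In the same library Slc6a3 was 0.627 times, Slc18a2 0.783 times and Nr4a2 0.288 times that median. The 5 genes above the median have longest coding transcripts of 1380 to 2547 bases in GENCODE, and the 3 below it of 3456 to 3785 bases. This library also had the lowest mitochondrial share, and the part of either in the pattern was not tested. Without it, Th and Slc6a3 correlated with r = 0.976, Th and Slc18a2 with r = 0.806, and Th and Nr4a2 with r = 0.648.

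The ratio of Slc6a3 to Th counts shows the same departure without any scaling between libraries. It was 1.44 to 1.78 in Con, 1.21 to 1.77 in MPTP-SU, 1.09 to 1.71 in MPTP-SU+S and 1.41 to 1.71 in MPTP-SU+T. In MPTP-Veh it was 1.04, 1.30, 1.53 and 0.520 in replicate order. Ddc counts per Th count lay between 0.821 and 1.23 in 18 libraries and reached 2.34 in replicate 1 of MPTP-Veh and 1.73 in replicate 1 of MPTP-SU, the 2 libraries with the lowest Th. Slc18a2 counts per Th count were also highest in these libraries, at 2.03 and 2.47.

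The genes most like Th, Slc6a3 and Slc18a2 were looked for by correlation with the mean standardised log2 CPM of these 3 genes over the 20 midbrain libraries, among 14953 genes with a mean of at least 1 CPM. As a description of likeness with no test, the first 10 outside the 8 genes were Ret (r = 0.903), Chrna6 (0.886), Gucy2c (0.876), Ntsr1 (0.866), Chrnb3 (0.839), Slc10a4 (0.824), Slc39a4 (0.820), Gch1 (0.804), Fam167a (0.780) and Cln3 (0.756). Ret is the receptor through which GDNF-family ligands signal, Chrna6 and Chrnb3 are nicotinic receptor subunits, and Gucy2c is a guanylyl cyclase known from dopaminergic neurons. Gch1 makes the tetrahydrobiopterin precursor that Th needs as cofactor. Of these 10 genes, 6 belong to a list of other genes of midbrain dopaminergic neurons and 1 to the cofactor list, and 3 to none.

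**Figure D4:**
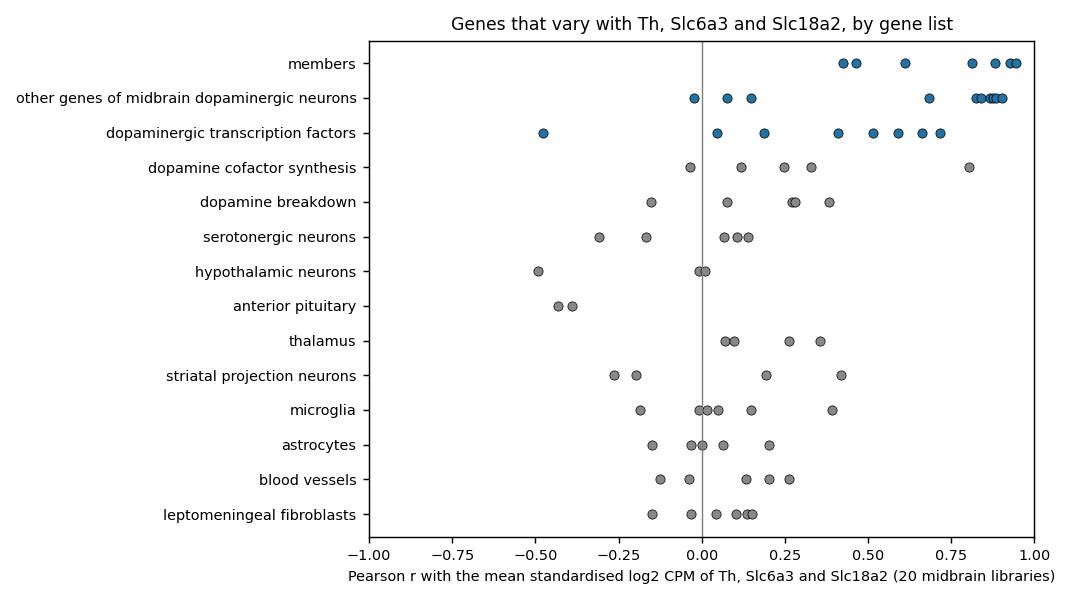
Pearson's r of each gene with the mean standardised log2 CPM of Th, Slc6a3 and Slc18a2 over 20 midbrain libraries, by gene list, with 1 point per gene of mean at least 1 CPM and the 3 dopaminergic lists in blue. Th, Slc6a3 and Slc18a2 are themselves part of that mean. Points over 0.6 lie in the 3 dopaminergic lists, except Gch1 of the cofactor list at 0.804, and all other points of the remaining lists lie below 0.5.

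Ranked among the same 14953 genes, Ddc was at place 11 (r = 0.813), Aldh1a1 at 39 (0.613), Nr4a2 at 317 (0.464) and Drd2 at 470 (0.425), and Pitx3 was too low to be ranked. Of the other transcription factors of the lineage, Lmx1b (0.715, place 16), Lmx1a (0.664), Foxa1 (0.591) and Foxa2 (0.516) followed the 3 genes. En1 (0.409), En2 (0.187) and Sox6 (0.05) followed less, and Otx2, which also marks other midbrain and forebrain cells, ran the other way (−0.48, place 14743). The list of dopaminergic genes was not uniform either, since Kcnj6 (−0.02), Sv2c (0.08) and Sncg (0.148), which many other neurons express, did not follow. Without replicate 4 of MPTP-Veh, r was 0.676 for Nr4a2, 0.841 for Lmx1b, 0.894 for Ddc, 0.253 for Sv2c and 0.136 for Sox6.

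The other genes of the dopamine pathway were counted in the same comparisons. Of 5 genes of tetrahydrobiopterin synthesis and recycling, none was called in MPTP-Veh against Con, in MPTP groups together or in MPTP-SU against MPTP-Veh. Their estimates with all MPTP groups were positive in 5 of 5, with a median log2 fold change of 0.42 against 0.02 over all genes. These estimates include replicate 4 of MPTP-Veh, where the 5 genes summed to 778.3 CPM. The sum was 286.7 to 317.9 CPM in the rest of MPTP-Veh and 229.3 to 256.9 CPM in Con. The smallest p were those of Qdpr (0.42, adjusted p = 0.357), Gch1 (0.49, adjusted p = 0.390) and Pcbd1 (0.22, adjusted p = 0.432). Of 5 genes of dopamine breakdown, none was called in these 3 comparisons, and Maob (0.15, adjusted p = 0.642), Maoa (0.09, adjusted p = 0.788) and Akr1b3 (0.10, adjusted p = 0.856) had the smallest p with MPTP groups together. Drd1 (−0.26, adjusted p = 0.705) and Drd5 (−0.14, adjusted p = 0.843), the tested ones of 4 other dopamine receptors, were not called either.

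Among the 8 transcription factors of dopaminergic development, none was called with MPTP groups together, where Sox6 (0.28, adjusted p = 0.339), En2 (0.31, adjusted p = 0.642) and En1 (0.31, adjusted p = 0.720) had the smallest p. In MPTP-SU against MPTP-Veh, 2 of the 8 fell and none rose (9.1% of all genes were called lower and 4.35% higher). En1 fell by 1.75 on the log2 scale (adjusted p = 0.00817 in edgeR's quasi-likelihood test) and En2 by 0.89 (adjusted p = 0.0419). En1 was 14.9, 19.8, 15.1 and 46.3 CPM in MPTP-Veh and 6.98, 4.85, 6.39 and 10.3 CPM in MPTP-SU, without overlap, as for 21.9% of all genes. Without replicate 4 of MPTP-Veh, En1 fell by 1.22 (adjusted p = 0.00729), and En2 was no longer called (−0.84, adjusted p = 0.0756). Sox6 was 0.50 higher (adjusted p = 0.0349), under the 1.5-fold threshold.

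Of 10 other genes of midbrain dopaminergic neurons, none was called with MPTP groups together, where Kcnj6 (−0.37, adjusted p = 0.0982), Ret (0.33, adjusted p = 0.50) and Dlk1 (−0.20, adjusted p = 0.654) had the smallest p. In MPTP-SU against MPTP-Veh 1 of the 10 fell and none rose, a share close to the 9.1% of all genes called lower. Sncg, the gene of gamma-synuclein, fell by 2.25 on the log2 scale (adjusted p = 0.0064), from 41.9, 42.5, 46.6 and 192.1 CPM to 22.3, 10.7, 13.4 and 21.3 CPM. The highest value is that of replicate 4 of MPTP-Veh, and without this library Sncg fell by 1.37 (adjusted p = 0.00257). The 6 of these genes that were most like Th, Slc6a3 and Slc18a2 were not called, with log2 fold changes of 0.07 for Ret, −0.10 for Chrna6, −0.08 for Gucy2c, 0.09 for Ntsr1, −0.27 for Chrnb3 and −1.06 for Slc10a4 (adjusted p = 0.0538).

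Markers of neighbouring cells moved between the same midbrain groups. In MPTP-SU against MPTP-Veh, 2 of 5 serotonergic genes fell, where 9.1% of all genes did (log2 fold change −2.78 for Fev and −1.85 for Gata3, adjusted p = 0.0312 and 0.0138), and their summed level was 73.9 to 289.1 CPM in MPTP-Veh and 29.4 to 103.3 CPM in MPTP-SU. Of 5 genes of striatal projection neurons, which also use Drd2, 2 fell against the same 9.1% of all genes (Ppp1r1b −0.77 and Penk −0.998, adjusted p = 0.0276 and 0.0163). The 5 genes summed to 109.6 to 185.2 CPM in MPTP-Veh and 68.4 to 95.3 CPM in MPTP-SU. These sums did not overlap, as was so for 21.9% of single genes. In the spinal cord Con libraries the same 5 genes summed to 198.5 to 266.6 CPM, so this list is not confined to striatal neurons. Without replicate 4 of MPTP-Veh, 2.09% of all genes were called lower. Gata3 (−1.07, adjusted p = 0.0284 in edgeR's quasi-likelihood test) and Penk (−0.83, adjusted p = 0.0290) were called in that fit. Fev (−2.09, adjusted p = 0.0931) and Ppp1r1b (−0.42, adjusted p = 0.0890) were not. Adora2a, a defining gene of the Drd2-expressing striatal neurons, had a log2 fold change of −0.66 (adjusted p = 0.167) and lay between 0.856 and 3.76 CPM in all midbrain libraries.

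Anterior pituitary genes, whose lactotroph cells also express Drd2, were present in some libraries. Both tested genes fell (log2 fold change −6.57 for Prl and −5.80 for Gh, adjusted p = 0.0268 and 0.0355), and the summed level of the 5 pituitary genes was 0.282 to 125.6 CPM in MPTP-Veh and 0.0671 to 1.61 CPM in MPTP-SU. Gh was 91.3, 3.47, 13.98 and 0 CPM in MPTP-Veh, where Drd2 was 26.8, 33.8, 36.6 and 38.6 CPM. Of 6 hypothalamic genes 3 were tested, and Pomc, which pituitary cells also express, fell by 7.45 (adjusted p = 0.0091 in edgeR's quasi-likelihood test), against the same 9.1% of all genes. The 6 hypothalamic genes, Pomc among them, summed to 656.9 CPM in replicate 1 of MPTP-Veh and 4.34 to 9.03 CPM in its other libraries. In replicate 1 Hcrt was 0 and Pmch 0.856 CPM, so the sum there did not come from these hypothalamic genes. Prl was 30.7 and Gh 91.3 CPM in the same library. The sum of the 6 genes was 4.62 to 37.0 CPM in MPTP-SU, so the high level in MPTP-Veh rested on 1 library. The part of the serotonergic, striatal, pituitary and hypothalamic genes in the Drd2 result was not tested.

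With MPTP groups together against Con, Hcrt, the orexin precursor of the lateral hypothalamus, was the only called gene of these neighbouring-cell lists, at −4.52 (adjusted p = 0.0443 in edgeR's quasi-likelihood test), and it rested on 46.5 CPM in replicate 3 of Con. Of all genes tested, 1.27% were called in this comparison. No gene of the serotonergic, striatal, pituitary or thalamic lists was called there, and the 4 noradrenergic genes were too low to be tested in the midbrain, with Dbh at or below 1.66 CPM. Tph2, the serotonergic marker, ranged from 0.505 to 110.1 CPM, and Pmch, another hypothalamic gene, from 0.255 to 274.0 CPM, and both ends of the Pmch range were Con libraries. In the 4 thalamic genes none was called in either comparison, and their summed level was 143.1 to 491.9 CPM in MPTP-Veh and 292.3 to 843.2 CPM in MPTP-SU.

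The glial calls rested on replicate 4 of MPTP-Veh. In MPTP-SU against MPTP-Veh, 2 of 6 microglial genes (Aif1 −1.35 and Cx3cr1 −1.02, adjusted p = 0.0199 and 0.0446) and 2 of 5 astrocyte genes (Gfap −1.03 and Aldh1l1 −1.11, adjusted p = 0.0429 and 0.0369) fell, where 9.1% of all genes did. Without that library none of the 4 was called (Aif1 −0.62, Cx3cr1 −0.16, Gfap −0.30 and Aldh1l1 −0.23, adjusted p = 0.0524 to 0.318). The summed microglial level was 194.4 CPM in that library, 82.2 to 91.5 CPM in the rest of MPTP-Veh and 84.7 to 97.2 CPM in MPTP-SU. The summed astrocyte level ran the other way, at 1752 to 1996 CPM in MPTP-Veh and 2058 to 2501 CPM in MPTP-SU without overlap, as was so for 21.9% of single genes. It was 2225 to 2468 CPM in Con, so MPTP-Veh also lay wholly below Con, and MPTP-SU overlapped Con. Slc1a3 (0.49), Slc1a2 (0.55) and Aqp4 (0.84) had positive estimates in MPTP-SU against MPTP-Veh that were not called. None of the 5 vascular or 6 leptomeningeal genes was called there. With MPTP groups together none of these 4 lists had a called gene, where 1.27% of all genes were called. In that comparison without replicate 4 of MPTP-Veh, 2 of the 6 leptomeningeal genes were called lower, where 2.33% of all genes were. These were Aldh1a2 (−0.93, adjusted p = 0.0204 in edgeR's quasi-likelihood test) and Slc22a6 (−1.02, adjusted p = 0.0496).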

How the data were processed

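Poly(A) RNA libraries (CORALL RNA-Seq V2) were sequenced as paired reads of 100 bases. Per the labels and the study's methods, the authors trimmed reads with fastp, aligned them to GRCm39 with STAR, estimated expression with Salmon and scaled it by TMM and CPM. GATK is also among the tools named in the submitters' processing notes. Versions and gene annotation are not given in the sources used here. The deposited values are estimated counts, which the authors made with Salmon and gave as whole numbers without scaling, with 1 column per library and 0 columns left unused. The annotation in the labels' build was not used here, so gene coordinates are given only for RefSeq promoter windows on GRCm38.p6, and transcript lengths come from GENCODE vM21.

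Counts were filtered with filterByExpr, scaled by TMM and fitted with edgeR 4.0.16 (quasi-likelihood test, Benjamini-Hochberg adjustment, R 4.3.3) over the 20 libraries of each tissue, which left 16629 genes to test for midbrain and 16682 for spinal cord. Comparisons between tissues used 1 fit of all 40 libraries (17426 genes). The thresholds (adjusted p below 0.05, fold change above 1.5) are those of the study's volcano plots, and edgeR was chosen here. Log2 CPM used a prior count of 2. Exact permutation tests compared 4 against 4 libraries, and correlations used 100000 permutations, with two-sided p throughout (scipy 1.17.1). The fits were tested on simulated data. Alternatives used DESeq2 1.42.0, limma 3.58.1, other scalings and filters, a replicate term and leaving out each library. The fit of the gene lists without replicate 4 of midbrain MPTP-Veh was added after the data were seen.

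The 8 genes and all gene lists were chosen with earlier results of these data known, and a list is described by its counts and median, with no test. Of each list, called genes are named, and otherwise up to 3 with the smallest p over all MPTP groups in the midbrain, plus the 10 genes most like Th, Slc6a3 and Slc18a2. En1, En2 and Sncg levels, and values of other list genes outside this rule (Adora2a, Tph2, Pmch, Dbh, Sox6, Slc1a3, Slc1a2, Aqp4, Slc22a6, Aldh1a2 and the likeness of single list genes), were chosen after their values were seen.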

Additional observations from a re-analysis of the deposited data

Results flagged for a closer look

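Drd2 in replicate 3 of midbrain MPTP-SU+S was 18.4 CPM, far below the other libraries of its group, which lay between 27.2 and 28.6 CPM. Pitx3 in replicate 4 of midbrain MPTP-Veh was 2.82 CPM, far above the others of its group, which lay between 0.700 and 1.05 CPM, and this is the library with the low mitochondrial share. Over 65 groups of 4 libraries examined in this way, chance alone gives about 1 such library in 20 groups.

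The difference between MPTP-SU and MPTP-Veh differed between midbrain and spinal cord for Drd2, by −0.52 on the log2 scale (adjusted p = 0.0408 in edgeR's quasi-likelihood test of the interaction), with lower values in MPTP-SU in 4 of 4 midbrain libraries. It also differed for Aldh1a1, by −0.34 (adjusted p = 0.0454). Neither difference reached 1.5-fold.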

How the results depend on the processing

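Of 2605 values of single genes under the alternatives, 2522 kept their direction and their side of the threshold, 77 changed sign or size while uncalled, 5 passed the threshold, 1 no longer passed it and 0 reversed. In MPTP-SU against MPTP-Veh in the midbrain, the 1 called gene of the 8 became 0 in a fit of only the libraries compared and 1 to 2 when single libraries were left out. The 2237 genes called there over all genes became 0 in the fit of only the libraries compared and 572 (without replicate 4 of MPTP-Veh) to 3543 when single libraries were left out. With all MPTP groups against Con, 212 genes became 321 with DESeq2 and 46 (without replicate 2 of Con) to 460 (without replicate 4 of MPTP-Veh) when single libraries were left out. Of the 7 genes that separated the Con tissues, 4 were tested and called when 10 counts were required in every library. Slc6a3, Slc18a2 and Pitx3 did not pass that filter in the spinal cord and had no value. In the interaction of MPTP-SU against MPTP-Veh with tissue, 0 called genes became 1, Drd2 (−0.62, adjusted p = 0.0122), without replicate 1 of midbrain MPTP-Veh. The cause of these changes was not tested.

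Same-numbered libraries of different midbrain groups correlated in their deviations from the group means by −0.17 to 0.378, and in 0 of 10 pairs of groups were all correlations over 0.1. For same-numbered midbrain and spinal cord libraries of 1 group, the correlations were −0.15 to 0.304 over 20 pairs. These correlations cannot show whether same-numbered libraries came from 1 mouse. The tests between tissues treated all libraries as independent. With the replicate block, the log2 fold change of Drd2 was −0.69 (adjusted p = 0.0171 in edgeR's quasi-likelihood test) and 2020 genes were called. At 3 to 30 counts per midbrain library, depth limits what can be said of Pitx3, and in the spinal cord of Slc6a3, Slc18a2 and Pitx3.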
